A study of Mus musculus with 3 samples.

Results

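The colony-stimulating factor (CSF) system was followed in single cells of the tumor-bearing mouse brain through 8 genes: the receptors *Csf1r*, *Csf2ra*, *Csf2rb*, *Csf3r* and *Flt3*, and the ligands *Csf1*, *Il34* and *Csf2*. They were taken by symbol from the 31053 genes in the count tables, and all 8 were found. Unique molecular identifiers (UMIs, each marking 1 captured RNA molecule) were summed per cell class and library. The cells came from 6 to 8 week old female C57BL/6 mice. Every mouse, vehicle-treated ones included, had been implanted in the right striatum with BT0309 brain tumor-initiating cells (BTICs), a line derived from Nf1/Trp53-mutant (NPcis) mice that carries luciferase and GFP. Mice received niacin at 100 mg/kg daily by intraperitoneal injection from day 7, or saline vehicle, and tissue round the injection site was taken 4 weeks after implantation. After a Percoll step that removes myelin and enriches leukocytes, live cells were sorted and profiled by droplet 3′ RNA sequencing. There were 3 libraries, named here vehicle replicate 2, niacin replicate 1 and niacin replicate 2. Each was a pool of 4 brain tissues by the labels, which also give a differing number of mice, so animals could not be separated. The vehicle group thus had 1 library, and no test of niacin against vehicle was possible. The tumor model was 1 BTIC line, tumor-free brain was not among these libraries, and the sort was on live cells rather than on a lineage.

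CSF-1 and interleukin-34 are the known ligands of CSF-1 receptor, a receptor tyrosine kinase on which microglia and most tissue macrophages depend for survival. *Il34* is classically a neuronal product in the brain. The granulocyte-macrophage CSF (GM-CSF) receptor pairs the ligand-binding chain encoded by *Csf2ra* with the signaling beta chain encoded by *Csf2rb*, and mice carry a second, closely related beta chain gene, *Csf2rb2*, used for interleukin-3. *Csf3r* encodes the granulocyte CSF receptor, the main growth factor receptor of neutrophils, and *Flt3* encodes the receptor that sustains dendritic cell progenitors.

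On mm10, the build named in the processing notes, the members other than *Csf1r* lie at chr3:107741048-107760469 (*Csf1*), chr8:110741829-110805949 (*Il34*), chr19:61217191-61228461 (*Csf2ra*), chr15:78325800-78351001 (*Csf2rb*), chr11:54247270-54249899 (*Csf2*), chr4:126023441-126044975 (*Csf3r*) and chr5:147330741-147400489 (*Flt3*). *Csf2rb2* is the neighbor of *Csf2rb*, at chr15:78282507-78305721. These genes are near-identical over much of their length, so how reads were split between them is uncertain. PU.1, the myeloid transcription factor encoded by *Spi1*, binds sites that often hold GAGGAA. RefSeq promoters on GRCm38.p6, from 250 bases before to 50 after the start site, were given for 5 of the 8 members and were searched for GAGGAA on both strands. The match was present in 2 of them, *Csf3r* and *Csf2ra*, and absent from those of *Csf1*, *Csf2* and *Flt3*. It was also present in 9289 of 32851 promoters (28.3%). The promoters of these myeloid receptor genes are shown since they alone of the 5 hold a match. The *Csf3r* promoter spans chr4:126024409-126024708 on the plus strand, with the match 86 bases before the start site. The *Csf2ra* promoter spans chr19:61228369-61228668 on the minus strand, with adjoining matches 14 and 8 bases before the start site. Capitals mark the matches, and a match is a description of the letters only.
Csf3r: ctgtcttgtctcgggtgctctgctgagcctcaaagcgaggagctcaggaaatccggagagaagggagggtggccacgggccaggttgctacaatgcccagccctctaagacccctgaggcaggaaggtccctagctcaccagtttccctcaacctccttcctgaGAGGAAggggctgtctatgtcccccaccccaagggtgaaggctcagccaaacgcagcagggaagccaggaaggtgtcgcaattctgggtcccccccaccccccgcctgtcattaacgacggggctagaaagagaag
Csf2ra: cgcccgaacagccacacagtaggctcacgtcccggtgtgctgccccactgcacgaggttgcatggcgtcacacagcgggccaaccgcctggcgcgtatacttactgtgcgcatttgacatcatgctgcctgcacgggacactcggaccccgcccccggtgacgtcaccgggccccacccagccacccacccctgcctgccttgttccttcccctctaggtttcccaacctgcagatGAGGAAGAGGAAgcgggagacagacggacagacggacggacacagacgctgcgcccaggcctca

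The libraries held 6947 cell barcodes with 8301228 to 10359526 UMIs each, of which 5528 passed the filters on detected genes (200 or more) and mitochondrial share (20% or less). Barcodes recurred between libraries: 478 were shared by the vehicle library and niacin replicate 1, 458 by the vehicle library and niacin replicate 2, and 892 by both niacin libraries. The deepest copy of each was kept, since copies differed in depth by a median of 15.7-fold, which left 4344 cells. The vehicle library stood apart, with a median of 2982.5 UMIs per kept cell against 5063 and 5212, and a median mitochondrial share of 8.85% against 3.08% and 3.29%. Classes were set by the number of lineage markers with a UMI, at least 3 and more than for any other of 18 marker lists, and no CSF gene was a marker. A class was given to 3936 cells (90.6%). The vehicle, niacin 1 and niacin 2 libraries held 427, 848 and 979 microglia-like cells. In the same order they held 289, 63 and 63 monocyte/macrophage-like cells, 75, 58 and 45 neutrophil-like cells, and 166, 127 and 142 T cell-like cells. In every library these 4 classes held UMIs of all 8 of their own markers. Per 1000000 UMIs, microglia markers summed to 15398 to 20531 in the microglia-like class and to 203 to 419 in the monocyte/macrophage-like class. Monocyte/macrophage markers summed to 15068 to 18167 in their own class but also to 6625, 12820 and 14042 in the neutrophil-like class, where 7, 5 and 5 of the 8 had a UMI. That list holds *Lyz2*, which neutrophils also express. Neutrophil markers summed to 182, 830 and 149 in the monocyte/macrophage-like class against 154081 to 400000 in their own. No astrocyte, neuron, endothelial or fibroblast class could be examined, since at most 1 cell was given to any of the non-hematopoietic lists other than choroid plexus. Levels below are UMIs of a gene per 1000000 UMIs of its class (CPM), listed in the order vehicle, niacin 1, niacin 2.

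Receptor RNA was divided among the myeloid classes. *Csf1r* was by far a microglial RNA, *Csf3r* was highest in neutrophil-like cells but had its largest pool of molecules in microglia-like cells, both chains of the GM-CSF receptor were highest, among the 6 larger classes (10 or more cells per library), in monocyte/macrophage-like and neutrophil-like cells, and *Flt3* had its highest level in a few dendritic-type cells. Ligand RNA was scarce. Across all kept cells there were 36929 UMIs of *Csf1r*, 4569 of *Csf3r*, 2612 of *Csf2rb*, 2326 of *Csf2ra* and 134 of *Flt3*, against 677 of *Csf1*, 10 of *Csf2* and 1 of *Il34*.

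*Csf1r*, the CSF-1 and interleukin-34 receptor, was at 2940, 3179 and 2981 CPM in microglia-like cells (3033 ± 128, SD over n = 3 libraries). In monocyte/macrophage-like cells it was at 576, 898 and 881 CPM (785 ± 181). In neutrophil-like cells it was at 127, 82.4 and 48.9 CPM. The 3 classes did not overlap in any library. T cell-like (14.0, 18.7 and 25.1 CPM), B cell-like and choroid plexus-like cells were lower in each library and could not be ordered beyond their spread. The B cell-like range (13.2 to 69.8 CPM) also overlapped the neutrophil-like one. Microglia-like cells were 51.9% of kept cells and held 92.0% of all *Csf1r* UMIs. Border-associated macrophages, which sit along meninges and vessels, were too few to compare: 2 and 3 cells in the niacin libraries gave 1957 CPM from 7 UMIs and 1572 CPM from 25 UMIs, both between microglia-like and monocyte/macrophage-like levels.

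Depth affects how many cells show a receptor, so shares were taken after thinning every cell to 1000 UMIs. The microglia-like class then had a *Csf1r* UMI in 91.2%, 95% and 92.2% of its cells, and the monocyte/macrophage-like class in 39.0%, 64.5% and 69.4%. In T cell-like cells, which should lack the receptor and stood for background RNA, the share was 2.44%, 2.48% and 0.709%. Without thinning these shares were 95.8%, 98.2% and 95.7% in microglia-like, 75.4%, 98.4% and 96.8% in monocyte/macrophage-like and 7.23%, 8.66% and 14.1% in T cell-like cells, at median depths of 4421 to 4846, 5348 to 8688 and 5395 to 6377.5 UMIs. Thinning left out 51, 47 and 104 microglia-like cells. The microglial receptor was thus found in nearly every microglia-like cell, far above the background share.

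*Csf3r*, the granulocyte CSF receptor, was at 2113, 670 and 379 CPM in neutrophil-like cells. It was at 355, 253 and 244 CPM in microglia-like cells and at 142, 111 and 86.7 CPM in monocyte/macrophage-like cells. Although the neutrophil-like values spread widely between libraries (1054 ± 929, SD, n = 3), each class lay wholly above the next. The neutrophil-like mean ranged from 525 to 1392 CPM with a library left out and reached 1875 CPM under other processing. Outside these classes it was low, at 7.02, 3.11 and 1.09 CPM in T cell-like cells. The one high lymphoid value, 262 CPM in B cell-like cells of the vehicle library, came from 23 UMIs of which 22 were in 1 cell. Since microglia-like cells were so many, they carried 66.1% of all *Csf3r* UMIs and neutrophil-like cells 20.9%. These pooled shares differed by library. Microglia-like cells held 841 of 1714, 1052 of 1452 and 1128 of 1403 UMIs, and neutrophil-like cells 466, 309 and 178.

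At 1000 UMIs per cell, *Csf3r* was found in 78.8%, 44.7% and 40.9% of neutrophil-like cells and in 31.6%, 24.0% and 23.1% of microglia-like cells. The share in T cell-like cells was 0%, 0.826% and 0%, where the zeros allow up to 1.83% and 2.13%. Before thinning it was 89.3%, 77.6% and 84.4%, 69.1%, 61.4% and 61.1%, and 4.22%, 1.57% and 0.704% in these 3 classes, with 2203, 5321.5 and 8362 UMIs per neutrophil-like cell. *Csf3r* in microglia-like cells was therefore above the share seen in T cells of the same libraries. Neutrophil markers summed to 129, 347 and 307 CPM in the microglia-like class and to 131, 348 and 176 CPM in the T cell-like class, whose *Csf3r* was at most 7.02 CPM. The sums were thus close in the first 2 libraries but not in niacin replicate 2. The part of neutrophil RNA in the microglia-like *Csf3r* level was not tested.

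*Csf2ra*, the ligand-binding chain of the GM-CSF receptor, was at 224, 235 and 263 CPM in monocyte/macrophage-like cells (241 ± 20.3, SD, n = 3). It was at 245, 169 and 115 CPM in neutrophil-like cells and at 119, 98.2 and 91.4 CPM in microglia-like cells (103 ± 14.4). The neutrophil-like range overlapped both the others, whereas T cell-like cells (8.02, 7.78 and 4.37 CPM) were far below. In the rare dendritic-like cells (14, 4 and 6 cells) *Csf2ra* was at 164, 356 and 87.8 CPM.

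*Csf2rb*, the signaling chain, was at 418, 147 and 138 CPM in monocyte/macrophage-like cells. It was at 317, 128 and 83.0 CPM in neutrophil-like cells and at 137, 90.0 and 78.2 CPM in microglia-like cells. In both peripheral classes the vehicle library was more than 2-fold above both niacin libraries, and the neutrophil-like range overlapped both the others. The monocyte/macrophage-like and microglia-like ranges met without overlapping, at 138 and 137 CPM. Mast/basophil-like cells, which respond to interleukin-3 through the same chain, gave 637, 344 and 333 CPM from 5, 29 and 33 cells. *Csf2rb* was nearly absent from T cell-like cells, at 7.02, 0 and 1.09 CPM. The neighboring *Csf2rb2* was at 122, 34.2 and 15.5 CPM in monocyte/macrophage-like cells, 31.6, 33.4 and 26.6 CPM in microglia-like cells and 127, 190 and 149 CPM in mast/basophil-like cells.

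Both chains were rarely seen together in one cell at this depth. Among cells thinned to 2000 UMIs, 17 of 286, 14 of 664 and 14 of 658 microglia-like cells held UMIs of both *Csf2ra* and *Csf2rb*. Of monocyte/macrophage-like cells, 34 of 209, 6 of 52 and 7 of 57 did. The share of *Csf2rb* among cells with *Csf2ra* was 49.3%, 25.0% and 31.8% in monocyte/macrophage-like cells, beside 52.9%, 21.4% and 25.7% among the others. In microglia-like cells the shares were 31.5%, 13% and 14.6% beside 17.2%, 14.0% and 14.4%, higher with *Csf2ra* by a clear margin only in the vehicle library. No test was made, and a zero at 2000 UMIs says only that no molecule was captured.

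*Flt3*, the receptor of dendritic progenitors, had 134 UMIs in 67 cells. Dendritic-like cells gave 153, 158 and 50.2 CPM from 14, 8 and 4 UMIs, and plasmacytoid dendritic-like cells gave 255 CPM from 17 UMIs in the vehicle library and 127 CPM from 3 UMIs in niacin replicate 2. These classes were 0.552% and 0.207% of kept cells but held 19.4% and 14.9% of *Flt3* UMIs. Monocyte/macrophage-like cells gave 14.2, 4.02 and 18.6 CPM, which became 8.35, 0 and 2.23 CPM once cells with 3 or more markers of another list were removed. Microglia-like cells had 1.20 to 3.80 CPM and neutrophil-like cells had no *Flt3* UMI.

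**Figure D1:**
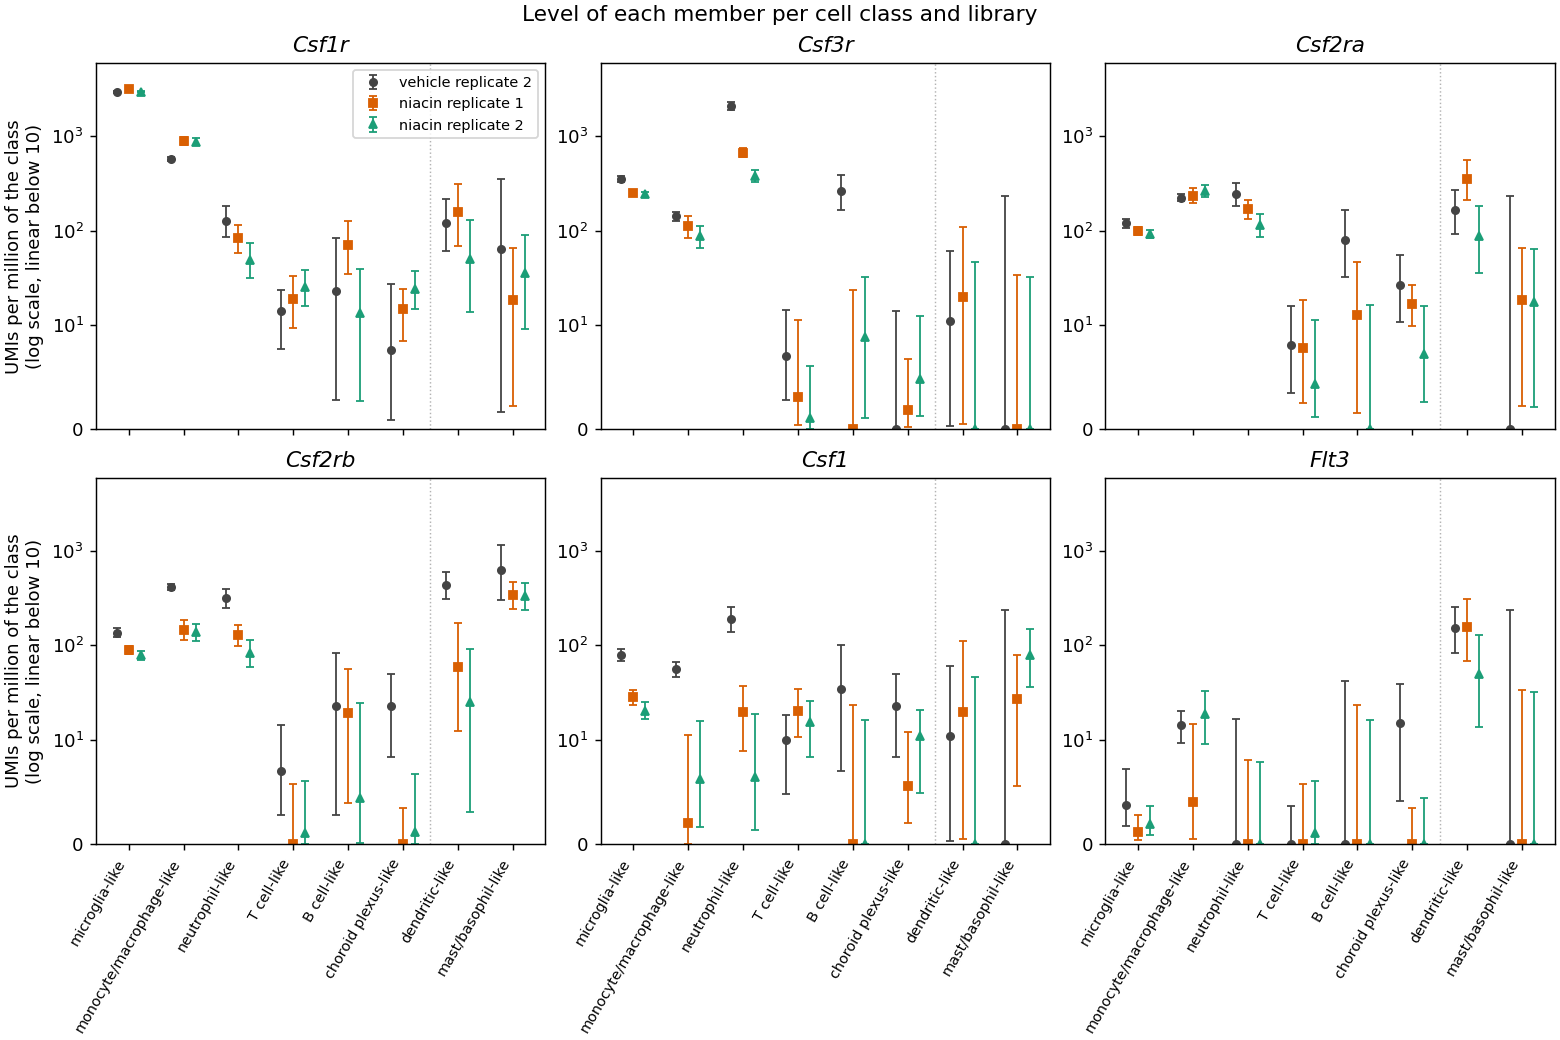
Level of *Csf1r*, *Csf3r*, *Csf2ra*, *Csf2rb*, *Csf1* and *Flt3* (vertical axis, CPM, log scale that is linear below 10) by cell class (horizontal axis), with 1 point per library and marks for vehicle replicate 2, niacin replicate 1 and niacin replicate 2. *Il34* and *Csf2* are not drawn. *Csf1r* steps down from microglia-like (2940 to 3179) to monocyte/macrophage-like (576 to 898) to neutrophil-like cells (48.9 to 127), and *Csf3r* from neutrophil-like (379 to 2113) to microglia-like cells (244 to 355).

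*Csf1*, the macrophage growth factor itself, was the only ligand with more than a handful of molecules, and its level was set apart by library more than by class. It was at 79.7, 28.2 and 20.3 CPM in microglia-like cells, from 189, 117 and 94 UMIs. It was at 55.5, 2.01 and 6.20 CPM in monocyte/macrophage-like cells, from 121, 1 and 4 UMIs, and at 190, 19.5 and 6.38 CPM in neutrophil-like cells, from 42, 9 and 3 UMIs. In these 3 classes the vehicle library was the highest. Of the 121 vehicle UMIs of monocyte/macrophage-like cells 39 were in 1 cell, without which that level was 38.4 CPM, and the highest vehicle cell held 21 of the 189 microglia-like and 7 of the 42 neutrophil-like UMIs. T cell-like cells did not share that order, with 10.0, 20.2 and 15.3 CPM, and neither did the few mast/basophil-like cells, with 0, 27.2 and 78.9 CPM from 0, 3 and 9 UMIs. No class separated from the next over all 3 libraries, and microglia-like cells supplied 59.1% of the 677 UMIs. By library they supplied 189 of 390, 117 of 151 and 94 of 136. At 2000 UMIs per cell, 28 of 29, 27 of 27 and 17 of 17 microglia-like cells with *Csf1* also held *Csf1r*, as did 97.3%, 99.4% and 98.8% of those without *Csf1*, so ligand and receptor RNA occurred in the same cells. With nearly every cell positive, these shares could not show a difference.

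*Csf2*, which encodes GM-CSF, was found as single UMIs in 10 cells. Of these, 8 were T cell-like, 2 of 166, 2 of 127 and 4 of 142 such cells, at 2.00, 3.11 and 4.37 CPM, and the other 2 had no class. *Il34* gave 1 UMI, in a choroid plexus-like cell of niacin replicate 1. In microglia-like cells its count of 0 allows up to 1.27, 0.722 and 0.648 CPM, and no cell was classed as neuron-like, the classical source, by the marker rule used here, in a preparation enriched for leukocytes.

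For tests between classes, edgeR's quasi-likelihood F test was run on the summed counts of the 6 classes that had at least 10 cells in every library. The library was a term, so that classes of one pool were compared with each other, and p-values were adjusted by the Benjamini-Hochberg method over 9651 genes. Since the library term takes out level differences between the 3 pools, p-values measure how far class differences vary from pool to pool. That spread was estimated over all 6 classes together. Of the 8 genes, 5 passed the filter on low counts and *Il34*, *Csf2* and *Flt3* did not.

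Microglia-like cells, the resident macrophages of the brain, were first set against monocyte/macrophage-like cells. The make-up of the latter differed between libraries, with nonclassical monocytes (defined below) making up 27 of 289, 55 of 63 and 44 of 63 cells. The CSF-1 and granulocyte CSF receptors were higher in microglia-like cells and both GM-CSF receptor chains were lower. *Csf1r* was higher by 1.94 ± 0.30 (log2 fold change ± SE, edgeR adjusted p = 2.34e-05) and *Csf3r* by 1.34 ± 0.44 (adjusted p = 0.0168). *Csf2ra* was at -1.29 ± 0.30 (adjusted p = 0.00143) and *Csf2rb* at -1.09 ± 0.32 (adjusted p = 0.00903). *Csf1* did not pass, at 0.93 ± 0.51 (adjusted p = 0.141). Thus 4 of 5 tested members passed, 2 in each direction, while 44.9% of all genes passed, 25.6% higher and 19.3% lower, so that the number called is no result about these genes. The *Csf3r* call was lost in DESeq2 (adjusted p = 0.122), without the library term (0.131) and without niacin replicate 1 (0.0640) or niacin replicate 2 (0.128). The *Csf2rb* call was lost in DESeq2 (0.0840), without the library term (0.0697) and without niacin replicate 2 (0.0686), and *Csf1* passed without the vehicle library (log2 fold change 2.29, adjusted p = 0.000669).

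Neutrophil-like against monocyte/macrophage-like cells sets the granulocytic against the monocytic arm of the system. *Csf3r* was higher in neutrophil-like cells by 3.56 ± 0.47 (log2 fold change ± SE, edgeR adjusted p = 8.74e-06) and *Csf1r* was at -2.58 ± 0.34 (adjusted p = 7.53e-06). *Csf1* was higher by 1.76 ± 0.59 (adjusted p = 0.0280). The GM-CSF receptor chains, which serve both lineages, were at 0.14 ± 0.32 (*Csf2ra*, adjusted p = 0.788) and 0.19 ± 0.34 (*Csf2rb*, adjusted p = 0.721), so a difference was not detected, which does not show the levels to be alike. The calls, 3 of 5 tested members with 2 higher and 1 lower, stand beside 29.1% of all genes, 12.4% higher and 16.7% lower. Of all calls here 42.5% were higher with edgeR and 53.8% with DESeq2, and the median of all genes was at -0.25 with edgeR against -0.04 with DESeq2, a shift small beside the *Csf3r* and *Csf1r* differences. The *Csf1* call was lost without the library term (1.59, adjusted p = 0.180) and without niacin replicate 1 (1.60, adjusted p = 0.103) or niacin replicate 2 (1.91, adjusted p = 0.0523). The number of genes called fell to 1402 from 2805 without niacin replicate 2 and to 1504 without niacin replicate 1.

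**Figure D2:**
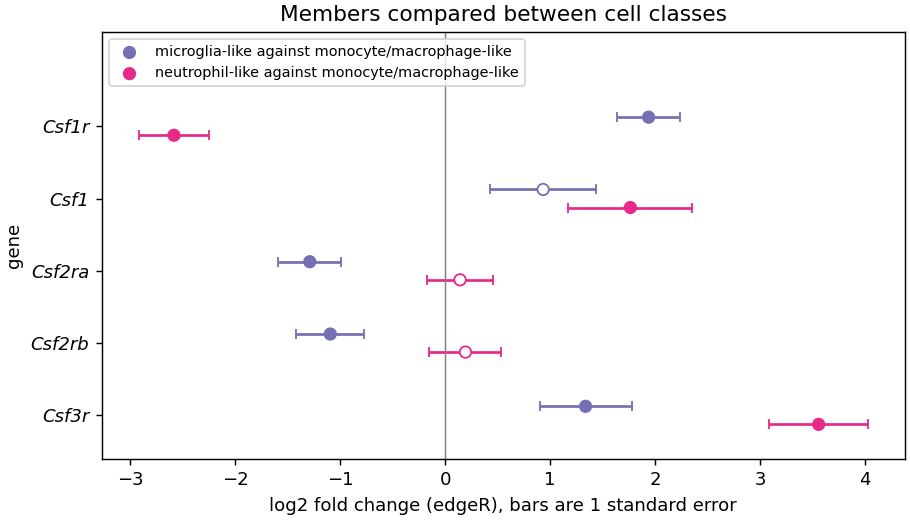
Differences of the 5 tested genes between classes (horizontal axis, log2 fold change with bars of 1 standard error; vertical axis, gene) for microglia-like and neutrophil-like against monocyte/macrophage-like cells. *Csf1r* lies at 1.94 and -2.58, on opposite sides of 0, *Csf3r* is above 0 in both, and *Csf2ra* and *Csf2rb* are below 0 for microglia-like cells and lie within 1 standard error of 0 for neutrophil-like cells.

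The rest of the pathway was read from a list of 31 other ligands, receptor chains, signaling genes and transcription factors, of which 24 could be tested. In microglia-like against monocyte/macrophage-like cells 5 were higher and 10 lower, and the list's median log2 fold change was -0.68 beside 0.20 over all genes, of which 25.6% were higher and 19.3% lower. Those higher included *Kitl*, the stem cell factor gene (5.51), *Cebpa*, a transcription factor of myeloid progenitors (1.96), and *Runx1*, a factor of blood cell formation (0.81). *Kitl* was at 38.4, 26.7 and 29.4 CPM in microglia-like cells and had 0 to 2 UMIs in each library of every other compared class. Those lower were the signaling genes *Pim1* (-3.61), *Cish* (-2.43), *Jak2* (-1.73), *Ptpn6* (-1.40), *Stat5a* (-1.26), *Stat3* (-1.16) and *Grb2* (-0.64), the interleukin-3 receptor chain *Il3ra* (-2.15), and the transcription factors *Cebpb* (-2.99) and *Spi1* (-1.19). The signaling genes *Stat5b* (-0.75, edgeR adjusted p = 0.0682), *Socs1* (-0.71, adjusted p = 0.247) and *Socs3* (0.93, adjusted p = 0.0569) did not pass. In neutrophil-like against monocyte/macrophage-like cells 1 was higher, the granulocyte factor *Cebpe* (7.84), and 4 were lower, among them *Irf8* (-3.46), *Cebpb* (-0.82) and *Runx1* (-0.80), with a list median of -0.01 beside -0.25 over all genes, of which 12.4% were higher and 16.7% lower, so 4 of 24 is no more than the background. *Kit*, the receptor of stem cell factor, was at 2549, 1811 and 1675 CPM in mast/basophil-like cells. *Flt3l*, the *Flt3* ligand gene, was, among the 6 larger classes, highest in T cell-like cells, at 70.2, 42.0 and 54.6 CPM, while *Csf3* gave 1 UMI and *Il3* none.

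The members also varied within classes. Microglia-like cells with UMIs of at least 2 of 7 activation genes (*Cst7*, *Lpl*, *Spp1*, *Itgax*, *Ch25h*, *Gpnmb* and *Cxcl13*) numbered 44, 9 and 27. This split, and that of monocytes below, were chosen after values were seen and carry no test. *Csf1* was at 172, 198 and 84.0 CPM in these activated cells, from 83, 13 and 22 UMIs. It was at 56.2, 25.4 and 16.5 CPM in the other microglia-like cells, so the activated value was higher in each library. *Csf2ra* was likewise higher in all 3, at 209, 229 and 145 against 95.9, 96.1 and 88.1 CPM. *Csf1r* was lower in all 3, at 2052, 1863 and 2218 against 3168, 3200 and 3026 CPM. *Csf3r* was at 256, 244 and 206 against 380, 253 and 246 CPM, but the activated value of niacin replicate 1 came from 16 UMIs (140 to 397 CPM) and that of niacin replicate 2 had an interval of 155 to 269 CPM, so a difference was visible only in the vehicle library. *Csf2rb* had no common order, at 178, 91.6 and 57.3 against 127, 90.0 and 79.4 CPM, and the activated value of niacin replicate 1 came from 6 UMIs. The activated cells were deeper, with medians of 9808.5, 7202 and 8415 UMIs against 3435, 4808 and 4473.5, and the part of depth was not tested.

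Monocyte/macrophage-like cells with at least 2 of 5 genes of nonclassical, patrolling monocytes (*Treml4*, *Cd300e*, *Ace*, *Adgre4* and *Spn*) were 27 of 289 in the vehicle library but 55 of 63 and 44 of 63 in the niacin libraries. *Csf1r* was at 731, 989 and 1100 CPM in them against 557, 361 and 416 CPM in the remaining cells, higher in all 3 libraries. *Csf3r* was at 183, 115 and 100 against 137, 83.3 and 58.1 CPM, with counting intervals that overlap in every library. *Csf2rb* was not, at 341, 146 and 144 against 427, 153 and 126 CPM.

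Niacin was set against vehicle as ratios of each niacin library to the 1 vehicle library, with 95% exact intervals that cover counting error only. UMIs are molecules, but cells and pools add spread that these intervals leave out. In microglia-like cells the microglial receptor was nearly the same in every library and the ligand was lower in the niacin libraries. *Csf1r* had ratios of 1.08 (1.05 to 1.11) for niacin replicate 1 and 1.01 (0.985 to 1.04) for niacin replicate 2. *Csf1* had ratios of 0.353 (0.278 to 0.447) and 0.255 (0.197 to 0.328). *Csf2rb* was at 0.656 (0.564 to 0.764) and 0.570 (0.490 to 0.665), *Csf3r* at 0.714 and 0.687, and *Csf2ra* at 0.825 and 0.768. The *Csf2ra* order did not hold once every barcode found in more than 1 library was dropped, at 89.3, 111 and 90.0 CPM. Activated cells, which held more *Csf1*, were 44 of 427, 9 of 848 and 27 of 979 microglia-like cells. Inside them *Csf1* was at 172 CPM in vehicle against 198 and 84.0 CPM. The value of niacin replicate 1 was thus not lower, but it came from 13 UMIs (106 to 339 CPM). The highest microglia-like cell of that library, whose subset was not recorded, held 11 *Csf1* UMIs. Among the other microglia-like cells both niacin libraries were lower (56.2 against 25.4 and 16.5 CPM). A gene was counted as past 2-fold when both niacin libraries were on the same side of the vehicle library by that much, among genes with a mean of at least 10 CPM. Of 5 assessed members 1 was, *Csf1*, which was lower. Of 8535 genes 3.83% were, 2.51% lower. The vehicle library was also the shallower one with the higher mitochondrial share, and the part of these in the ratios was not tested.

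In monocyte/macrophage-like cells the receptor for CSF-1 was higher in the niacin libraries while the GM-CSF receptor beta chain was lower. *Csf1r* had ratios of 1.56 (1.40 to 1.74) and 1.53 (1.38 to 1.69). *Csf2rb* had ratios of 0.351 (0.273 to 0.446) and 0.330 (0.262 to 0.411). *Csf1* had ratios of 0.0362 (0.000909 to 0.205) and 0.112 (0.0299 to 0.293). These members moved apart, and *Csf2ra*, the partner chain of *Csf2rb*, stayed near 1 at 1.05 and 1.18. Of 6 assessed members *Csf2rb* was past 2-fold and lower, beside 14.8% of 7638 genes, 9.01% lower. *Csf1* was past 2-fold too, but it reached the mean of 10 CPM only through the vehicle library, where it was high. It is therefore not counted with *Csf2rb*. The class itself differed between libraries: the nonclassical monocyte genes *Ear2* and *Treml4* were at 62.9, 778 and 680 CPM and 39.0, 396 and 308 CPM. Within nonclassical cells *Csf1r* was at 731 CPM in vehicle against 989 and 1100 CPM, and *Csf2rb* at 341 against 146 and 144 CPM. In the remaining cells of the class *Csf2rb* kept that order, at 427 against 153 and 126 CPM, but *Csf1r* had the opposite one, at 557 against 361 and 416 CPM, so the class-level *Csf1r* order was not found in both subsets. Once every barcode found in more than 1 library was dropped, *Csf1* in the class became 29.8, 7.09 and 18.1 CPM, from 24, 1 and 4 UMIs. Niacin replicate 2 was then no longer past 2-fold. The class as a whole fell from 415 to 250 cells, so a loss of UMIs was not particular to *Csf1*. At 1000 UMIs per cell *Csf1* was found in 7 of 267, 0 of 62 and 1 of 62 monocyte/macrophage-like cells (2.62%, 0% and 1.61%), whose exact intervals overlap. *Csf2rb* under the same removal was at 425, 170 and 127 CPM.

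In neutrophil-like cells the 5 members that passed the count filter were lower in both niacin libraries. So were 71.3% of the 6095 genes with a mean of at least 10 CPM, and 55.1% of 6750 with *S100a8* and *S100a9* left out of the total, so the count is no result about these members. *Csf3r* had ratios of 0.317 (0.274 to 0.367) and 0.179 (0.15 to 0.213). *Csf2rb* had ratios of 0.403 and 0.261, *Csf1* of 0.103 and 0.0335, *Csf2ra* of 0.691 and 0.469, and *Csf1r* of 0.649 and 0.385. The total behind these levels differed too: *S100a8* and *S100a9*, the most abundant neutrophil RNAs, took 14.2%, 32.6% and 37.0% of the class's UMIs, and with them left out of the total *Csf3r* was at 2464, 994 and 601 CPM. *Retnlg* was at 1651, 15179 and 14133 CPM and *Il1r2* at 921, 280 and 119 CPM, so the neutrophils differed in other genes as well, and the part of this in the *Csf3r* level was not tested. After removal of cells with 3 or more markers of 2 lists, *Csf3r* was at 2949, 2037 and 638 CPM from 61, 34 and 18 cells, and without any shared barcode it was at 2766, 1982 and 772 CPM. The vehicle library remained the highest under both removals, but niacin replicate 1 came much closer to it.

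**Figure D3:**
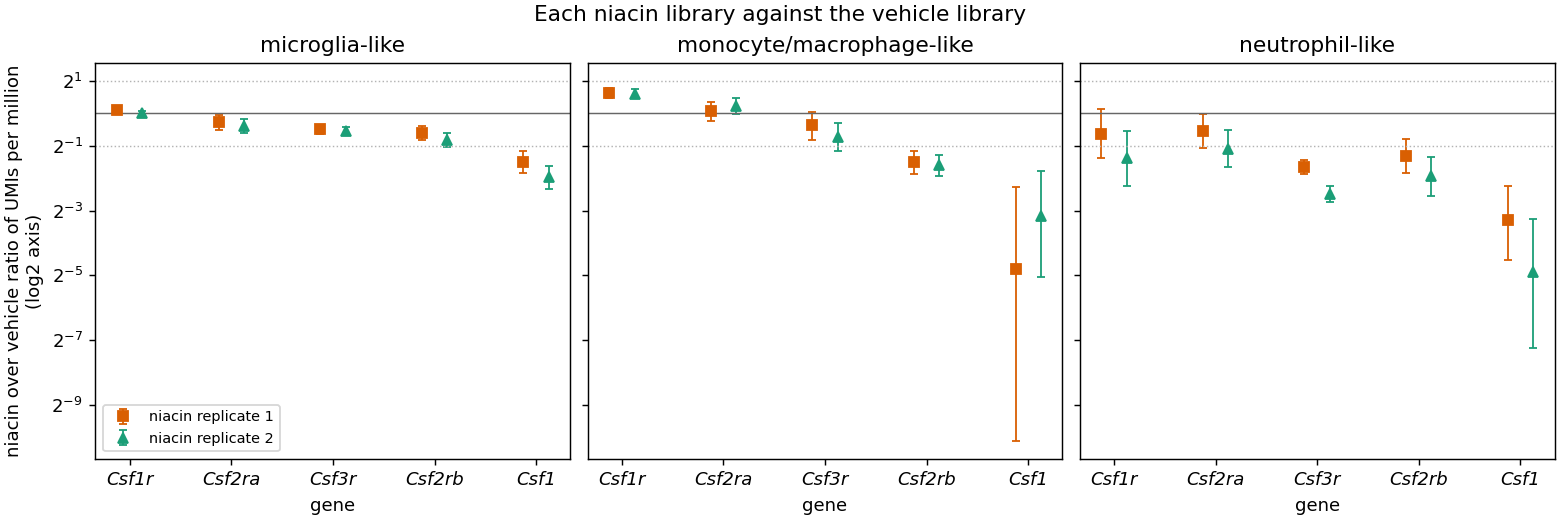
Ratio of each niacin library to the vehicle library (vertical axis, log2-spaced, with the 95% counting interval as bars and dotted lines at 2-fold) for *Csf1r*, *Csf1*, *Csf2ra*, *Csf2rb* and *Csf3r* in microglia-like, monocyte/macrophage-like and neutrophil-like cells. *Csf1* lies below the lower 2-fold line in all 3 classes, whereas *Csf1r* is at 1.01 to 1.08 in microglia-like, 1.53 to 1.56 in monocyte/macrophage-like and 0.385 to 0.649 in neutrophil-like cells.

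Over the 18 class-by-library sums, 8723 genes with a mean of at least 10 CPM were ranked by the Pearson correlation of log2(CPM + 10) with each member. These sums share libraries, depth and classes, and the values describe likeness only. *Csf1r* was most like *Lair1* (r = 0.977), *P2ry6* (0.967) and *Gusb* (0.964). *Csf2rb* was most like *Rab32* (0.977), *Il13ra1* (0.964) and *Tlr13* (0.944), and *Csf2ra* like *Lonrf1* (0.962), *Rab32* (0.958) and *Tlr13* (0.955), so *Rab32* and *Tlr13* stood beside both receptor chains. *Csf3r* was most like *Ogfrl1* (0.962), *Gm49368* (0.945) and *Trpm2* (0.942). The ligand *Csf1* had looser neighbors, *Cass4* (0.866), *Irgm2* (0.835) and *Hcar2* (0.823), the last of which encodes the niacin receptor.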

How the data were processed

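Per the labels, 3 libraries of live sorted brain cells (1 vehicle, 2 niacin) were made with 10x 3′ chemistry, and the authors' processing notes name Cell Ranger 3.1, STAR and mm10. The deposited values are raw UMI counts per gene and barcode. All columns of values belonged to these samples. The genes, lists and classes were chosen with earlier results of these data known.

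Barcodes with under 200 genes or over 20% mitochondrial UMIs were dropped, and 1 copy of each shared barcode, the deepest, was kept. No doublet caller was run. Instead, 626 cells with 3 or more markers of 2 lists were removed in an alternative. Marker lists held 8 genes each (dendritic 12). Class names were rebuilt from markers and may differ from the study's own. Of the classed cells, 289 had exactly 3 markers and 203 a lead of 1.

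Counts were summed per class and library. Classes were compared in edgeR 4.0.16 (R 4.3.3; TMM, filterByExpr, quasi-likelihood, library and class as terms, adjusted p under 0.05), since classes of 1 library come from the same pooled mice. SE is the absolute log2 fold change over the root of F. Counting intervals are exact Poisson, or exact binomial for ratios and shares, at 95%, and a count of 0 was given a limit of 3 counts. Planned comparisons of dendritic-like and mast/basophil-like with monocyte/macrophage-like cells, and natural killer-like with T cell-like cells, could not be made with fewer than 10 cells in a library. Named genes are the 8 members, the 31 of the pathway list and the 3 genes most like each member. Other genes (*Ear2*, *Treml4*, *Retnlg*, *Il1r2*, *S100a8*, *S100a9*, *Lyz2* and those of the subset lists) describe the make-up of classes and were chosen after values were seen. On simulated data over 9651 genes the test recovered 84% of 4-fold and 34% of 2-fold changes for microglia-like, and 79% and 15% for neutrophil-like, against monocyte/macrophage-like cells, with 4 and 6 unchanged genes called. Alternatives were DESeq2 1.42.0, other scalings, filters, cell and class rules and left-out libraries, 3 of them chosen after seeing the data. Python 3.11.15 was used.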

Additional observations from a re-analysis of the deposited data

Results flagged for a closer look

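The ratio of niacin to vehicle libraries went opposite ways in several pairs of classes, with both niacin libraries on one side of the vehicle library in the first class and both on the other side in the second. These differences of mean log2 ratios were not tested, since there was 1 vehicle library. For *Csf1r*, neutrophil-like cells were lower in the niacin libraries, microglia-like cells were nearly the same (ratios of 1.08 and 1.01) and the others were above the vehicle library: the difference was 1.07 for microglia-like minus neutrophil-like, 1.63 for monocyte/macrophage-like minus neutrophil-like, -1.62 for neutrophil-like minus T cell-like and -2.32 for neutrophil-like minus choroid plexus-like cells. For *Csf1*, T cell-like cells were higher and the others lower: the difference was -2.55 for microglia-like minus T cell-like, -4.79 for monocyte/macrophage-like minus T cell-like, -4.90 for neutrophil-like minus T cell-like and 2.36 for T cell-like minus choroid plexus-like cells. For *Csf2ra*, monocyte/macrophage-like cells were slightly higher and the others lower: the difference was -0.48 for microglia-like minus monocyte/macrophage-like, 0.96 for monocyte/macrophage-like minus neutrophil-like and 1.42 for monocyte/macrophage-like minus choroid plexus-like cells. Of these 11 pairs, 8 remained opposite with every shared barcode removed and 5 with cells holding markers of 2 lists removed. The pairs lost were, in the first case, microglia-like against neutrophil-like cells for *Csf1r*, and microglia-like and choroid plexus-like against monocyte/macrophage-like cells for *Csf2ra*. In the second case they were all 4 pairs for *Csf1* and the same *Csf2ra* pairs. The T cell-like and choroid plexus-like values rest on 2 to 23 UMIs per library, and *Csf1r* in T cell-like cells stood for background RNA in the report, so those *Csf1r* pairs are not read as a difference in these classes. For *Csf1* in T cell-like cells the counting intervals of both ratios included 1 (0.817 to 5.14 and 0.630 to 3.84). The same held for *Csf2ra* in monocyte/macrophage-like cells (0.851 to 1.29 and 0.982 to 1.40). Opposite directions are thus not established for the *Csf1* and *Csf2ra* pairs.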

How the results depend on the processing

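*Csf1r* and *Csf3r* kept direction and call for neutrophil-like against monocyte/macrophage-like cells in all alternatives, as did *Csf1r* and *Csf2ra* for microglia-like cells. For microglia-like cells *Csf1* (0.93, adjusted p = 0.141) passed with mixed cells removed (1.41, adjusted p = 0.0205) and with no low-count filter (0.89, adjusted p = 0.0327), and ranged from 0.63 to 2.29 with a library left out. *Csf2rb* lost its call in DESeq2 (-1.08) and with no replicate block, that is without the library term (-1.29, adjusted p = 0.0697), and ranged from -1.26 to -0.89 with a library left out. *Csf3r* lost its call in DESeq2 (1.27) and with no replicate block (1.26, adjusted p = 0.131), and ranged from 1.22 to 1.40 with a library left out. For neutrophil-like cells *Csf1* lost its call with no replicate block (1.59, adjusted p = 0.180) and ranged from 1.60 to 2.45 with a library left out. Neither *Csf2ra* nor *Csf2rb* was called there, and their sign turned, for *Csf2ra* with mixed cells removed (-0.19) and without niacin replicate 1 (-0.051, the range being -0.051 to 0.32), and for *Csf2rb* with all copies of shared barcodes kept (-0.079) and without niacin replicate 1 (-0.085, the range being -0.085 to 0.50). The cause of these changes was not tested. Genes called numbered 4334 for microglia-like cells, 2613 with every shared barcode removed and 2652 to 4793 with a library left out. For neutrophil-like cells they numbered 2805, 1739 with every shared barcode removed, 1806 with only the 2 compared classes fitted and 1402 to 3042 with a library left out. Genes past 2-fold in monocyte/macrophage-like cells numbered 1693 to 1855 with 1 niacin library left out, where 1 library has to pass in place of both. Of 158 alternative levels 5 moved beyond the spread, and of 80 alternative ratios 15 moved and 1 changed sign, *Csf2ra* in microglia-like cells with every shared barcode removed (log2 ratio -0.33, then 0.17). Shares of cells moved with thinning depth in 15 of 18 alternatives. Few UMIs limit what can be said of *Csf2*, *Il34* and *Flt3*, and 1 vehicle library limits every niacin ratio.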
